A study of Mus musculus with 6 samples.

Results

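The genes described here are 10 genes of MHC class I antigen presentation, taken by symbol from a table of read counts for 56941 mouse genes: the class I light chain B2m, the heavy chains H2-K1, H2-D1 and H2-T23, the peptide transporter genes Tap1 and Tap2 with the loading factor Tapbp, the immunoproteasome genes Psmb8 and Psmb9, and the regulator Nlrc5. Each of the 10 symbols matched 1 row, and all 10 had enough counts to be tested, among 19354 genes tested in all. RNA with poly(A) tails was sequenced from the ventral hippocampus of 6 mice. A group of 3 mice has the genotype label NEGR1_overexpression and a group of 3 the label NEGR1_control. NEGR1 is a cell adhesion protein of neurons, and the study asked about its part in working memory and in anxiety- and depression-like behaviour. The sources used here do not say how NEGR1 was raised or in which cells, what promoter or vector was used, what the control mice carried, or the strain and age of the mice.

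MHC class I molecules show peptides from inside a cell to CD8+ T cells. The proteasome cuts proteins into peptides, and in cells exposed to interferon the subunits encoded by Psmb8 and Psmb9 replace standard subunits in its core. TAP, a heterodimer of TAP1 and TAP2, carries the peptides into the endoplasmic reticulum, where tapasin (Tapbp) holds an empty heavy chain with beta-2-microglobulin (B2m) next to TAP until a peptide is bound. NLRC5 is a transactivator that works on class I promoters through the proteins bound to their X and Y boxes. In the brain, class I is best known from endothelium and microglia. It is low in neurons at rest, where it has also been linked to synapse development.

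Promoters are shown first, because class I promoters are known for X and Y boxes and interferon elements, which these windows hold to different degrees. RefSeq windows of 300 bases (build GRCm38.p6), from 250 bases before to 50 after each start site, were held for 8 of the 10 genes; Tap2 and Nlrc5 had none. Capitals mark matches, on either strand, to 6 short motifs: the interferon-stimulated response element core GAAANNGAAA, the class I interferon response motif GAANNGAAACT, the gamma-activated site TTCNNNGAA, the X2 box core TGACG, the Y box CCAAT and the NF-kB core GGGATTCCC. A motif on the other strand is read as its reverse complement, so that a Y box can appear as ATTGG. GAANNGAAACT and GGGATTCCC were added after the windows had been seen, and H2-K1 has a second, overlapping window that holds the same motifs. The windows of B2m (chr2:122147437-122147736, plus strand), H2-K1 (chr17:34000284-34000583, minus strand), H2-D1 (chr17:35262844-35263143, plus strand), Tap1 (chr17:34187306-34187605, plus strand) and Psmb8 (chr17:34197945-34198244, plus strand) read, 5′ to 3′:
B2m: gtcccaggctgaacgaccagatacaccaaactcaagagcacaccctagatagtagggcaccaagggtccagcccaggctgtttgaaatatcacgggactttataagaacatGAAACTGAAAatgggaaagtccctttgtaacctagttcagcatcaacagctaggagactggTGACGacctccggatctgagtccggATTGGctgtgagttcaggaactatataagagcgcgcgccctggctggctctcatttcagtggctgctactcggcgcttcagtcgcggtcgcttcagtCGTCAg
H2-K1: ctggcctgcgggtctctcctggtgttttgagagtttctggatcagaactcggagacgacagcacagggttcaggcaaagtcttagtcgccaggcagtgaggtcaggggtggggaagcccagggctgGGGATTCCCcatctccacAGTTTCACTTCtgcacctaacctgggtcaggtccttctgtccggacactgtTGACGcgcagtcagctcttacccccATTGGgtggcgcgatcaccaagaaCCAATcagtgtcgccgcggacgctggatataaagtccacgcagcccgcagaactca
H2-D1: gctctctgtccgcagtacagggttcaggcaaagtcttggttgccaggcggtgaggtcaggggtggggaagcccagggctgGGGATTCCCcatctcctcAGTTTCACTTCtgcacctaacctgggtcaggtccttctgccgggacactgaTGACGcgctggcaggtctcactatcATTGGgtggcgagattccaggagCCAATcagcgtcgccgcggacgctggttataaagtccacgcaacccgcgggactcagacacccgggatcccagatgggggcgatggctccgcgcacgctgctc
Tap1: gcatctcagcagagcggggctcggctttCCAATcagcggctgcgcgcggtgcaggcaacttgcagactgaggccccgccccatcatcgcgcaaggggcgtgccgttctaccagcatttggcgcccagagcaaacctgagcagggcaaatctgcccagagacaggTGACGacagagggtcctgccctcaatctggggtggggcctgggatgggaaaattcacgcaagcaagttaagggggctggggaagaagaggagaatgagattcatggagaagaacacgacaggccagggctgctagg
Psmb8: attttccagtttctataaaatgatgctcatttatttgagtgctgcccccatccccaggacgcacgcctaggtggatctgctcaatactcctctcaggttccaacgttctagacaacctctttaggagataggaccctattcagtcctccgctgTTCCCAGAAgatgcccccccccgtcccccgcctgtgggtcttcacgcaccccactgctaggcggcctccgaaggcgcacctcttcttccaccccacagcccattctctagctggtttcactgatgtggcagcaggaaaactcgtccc

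B2m, H2-K1 and H2-D1 carried an X2 box core followed by a Y box on the other strand at the same distance, 25 bases from first base to first base. In B2m the X2 core began at -78 and the Y box at -53, counted from the start site; in H2-D1 they began at -101 and -76. Of 32851 promoter windows, 19 (0.0578%) held this pair at this distance, and among the other class I chains H2-M3 did. The distance was chosen after these windows had been seen. H2-K1 and H2-D1 also shared the NF-kB core 69 bases before the X2 core and GAANNGAAACT 51 bases before it, and 180 of 254 aligned bases (70.9%) were identical. Over all windows the motifs were found in 3.44% (GAAANNGAAA), 0.527% (GAANNGAAACT), 8.30% (TTCNNNGAA), 20.8% (TGACG), 37.4% (CCAAT) and 0.353% (GGGATTCCC). GAAANNGAAA was found in B2m and H2-T23, and TTCNNNGAA only in Psmb8 among the 8 genes. Tap1 and Psmb9 lie head to head, and their windows share 275 bases, so that 1 X2 core and 1 Y box are counted for both. A match is a description of the letters and does not show that a factor binds there.

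The 6 libraries held 30726110 to 38108394 counts each. Negr1 itself was at 185, 199 and 195 CPM in the overexpression libraries and at 181, 168 and 180 CPM in the control libraries (adjusted p = 0.488): all 3 overexpression libraries lay above the control libraries, by 1.09-fold in the means. Values are CPM, the counts of a gene per 1000000 counts of the TMM-scaled library total, given for replicates 1, 2 and 3 of each group in that order, and a fold is overexpression over control. Adjusted p-values are from edgeR's quasi-likelihood test with Benjamini-Hochberg adjustment over the 19354 genes, and a gene was called at an adjusted p below 0.05. In bulk tissue a change in RNA per cell and a change in the number of cells that make it cannot be told apart.

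Most of the class I genes had a higher mean in overexpression than in control libraries, by a median log2 difference of 0.35, but none was called. In edgeR's test 0 of the 10 genes passed, where 0.0465% of all tested genes did. At an unadjusted p below 0.05, 4 of the 10 were higher in overexpression (Nlrc5, H2-T23, Tap1 and Psmb8) and none lower, against 4.64% of all tested genes that were higher and 4.6% that were lower. A mean fold above 1 was seen in 9 of 10, against 50.4% of tested genes, whose median log2 fold change was 0.0015. All 3 overexpression libraries lay above all 3 control libraries for 4 of the 10 (Nlrc5, Tap1, H2-T23 and Psmb9), against 7.07% of tested genes. The two-sided exact permutation p over the 6 libraries was 0.1 for those 4, the smallest that 3 against 3 allows, and 0.2 to 0.7 for the other 6. DESeq2's Wald test called 1 of the 10, Nlrc5 (adjusted p = 0.0394), where it called 0.679% of the genes it adjusted, and limma-voom called 0.

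**Figure D1:**
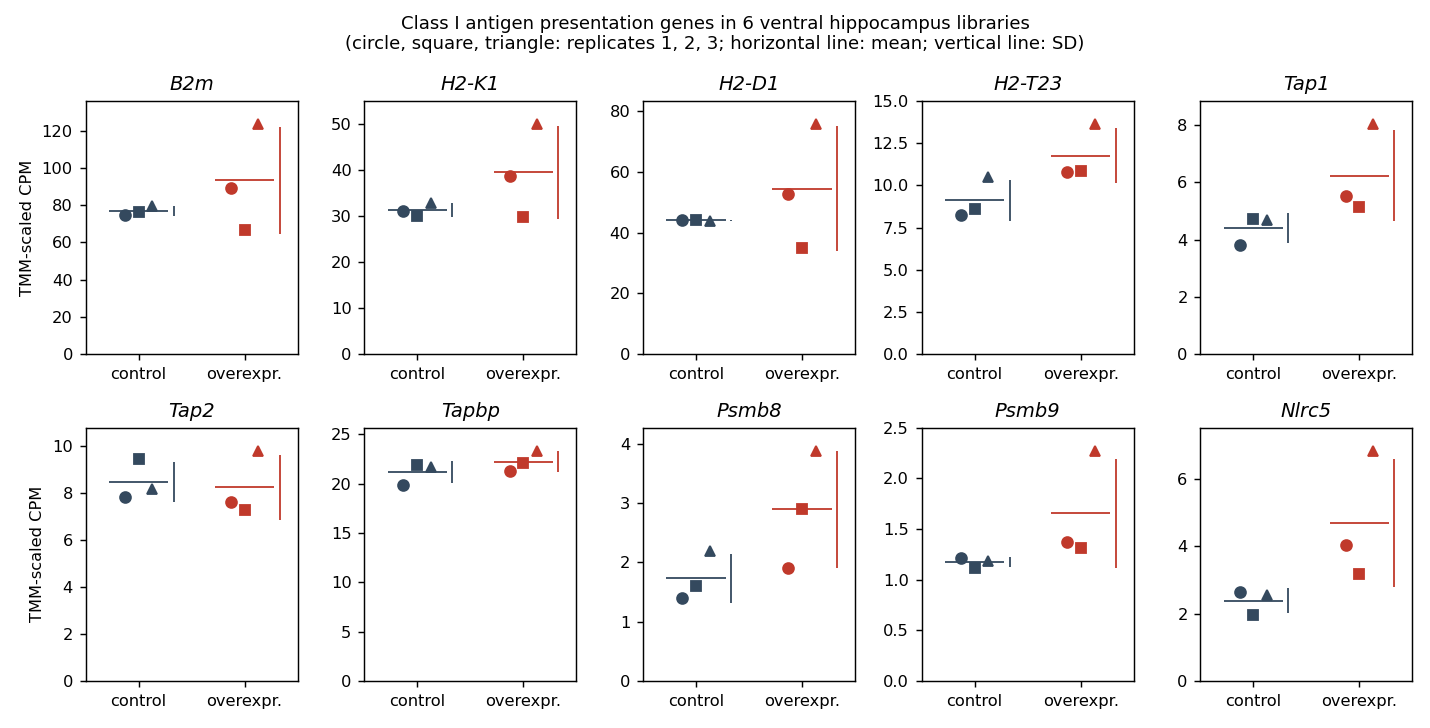
TMM-scaled CPM of each of the 10 genes in the 3 control (dark) and 3 overexpression (red) libraries; symbols stand for replicates 1 to 3, horizontal lines for means and vertical lines for SD, and each axis starts at 0. Overexpression replicate 3 (triangle) is the highest point in all 10 panels.

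Nlrc5, the transactivator of the class I genes, had the largest fold of the 10. Its level was 4.06, 3.19 and 6.85 CPM in overexpression libraries and 2.65, 1.97 and 2.56 CPM in control libraries. All 3 overexpression libraries lay above the control libraries, and replicate 3 stood highest. The means were 4.70 ± 1.91 and 2.39 ± 0.369 CPM (SD, n = 3), a 1.97-fold difference (95% interval 1.31 to 2.97). On the log2 scale this was 0.98 ± 0.267 (SE). The edgeR adjusted p was 0.340 (unadjusted p = 0.00379). Nlrc5 passed with DESeq2 (above) and in edgeR without a filter on low counts (adjusted p = 8.7e-05). The fit without a filter called 304 of 35633 genes, where the main test called 9 of 19354. By unadjusted p it ranked 211 of the 19354 genes. Without overexpression replicate 3 its log2 fold change was 0.61 (adjusted p = 0.629).

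The light chain and the classical heavy chains, which form the class I molecule itself, were the most abundant of the 10 and had overlapping groups. B2m was at 89.2, 66.8 and 124 CPM in overexpression and at 74.6, 76.5 and 79.8 CPM in control libraries. Overexpression replicate 2 was thus the lowest of the 6 libraries and replicate 3 the highest, while the control libraries lay within 1.07-fold of each other. The means of 93.3 ± 28.7 and 77.0 ± 2.65 CPM (SD, n = 3) gave a fold of 1.21 with an interval of 0.774 to 1.90 (adjusted p = 0.786). H2-K1 was at 38.7, 29.7 and 50.02 CPM against 31.1, 30.0 and 32.9 CPM, and H2-D1 at 52.7, 34.8 and 75.9 CPM against 44.3, 44.2 and 44.0 CPM. In both heavy chains overexpression replicate 2 was again the lowest library and replicate 3 the highest. H2-K1 had a fold of 1.26 (interval 0.915 to 1.74, adjusted p = 0.654) and H2-D1 a fold of 1.23 (interval 0.690 to 2.21, adjusted p = 0.825). Within the overexpression group H2-D1 ranged over 2.18-fold, and within the control group over 1.01-fold. Without overexpression replicate 3 the log2 fold changes were 0.022 for B2m, 0.13 for H2-K1 and -0.012 for H2-D1.

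H2-T23 encodes Qa-1b, a non-classical heavy chain that binds the signal peptides of other class I chains and is recognised by NK receptors. It was at 10.8, 10.8 and 13.6 CPM in overexpression and at 8.25, 8.59 and 10.5 CPM in control libraries. The groups did not overlap, although control replicate 3 came close to overexpression replicates 1 and 2. The fold was 1.29, with an interval of 1.07 to 1.56 (adjusted p = 0.416), and the spread within the groups was alike, at 13.9% of the mean in overexpression and 13.2% in control libraries. Overexpression replicates 1 and 2 stood on the same level for this gene, in contrast to B2m, H2-K1 and H2-D1.

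Tap1 and Tap2 encode the 2 chains of the transporter. Tap1 was at 5.52, 5.15 and 8.04 CPM in overexpression and at 3.80, 4.73 and 4.69 CPM in control libraries, with no overlap. Its fold was 1.42, with an interval of 1.09 to 1.84 (adjusted p = 0.423). Without overexpression replicate 3 its log2 fold change was 0.28 (adjusted p = 0.805) in place of 0.50. Tap2 was at 7.61, 7.28 and 9.79 CPM against 7.82, 9.44 and 8.16 CPM. Its groups overlapped, and the fold of 0.970 (interval 0.796 to 1.18, adjusted p = 0.950) was the only one of the 10 below 1. Tapbp, which encodes tapasin, was at 21.2, 22.1 and 23.3 CPM against 19.9, 21.9 and 21.7 CPM, a fold of 1.05 (interval 0.939 to 1.18, adjusted p = 0.810). Within the overexpression group Tapbp varied least of the 10 genes, with a coefficient of variation of 4.73%, against 5.20% in the control group, where B2m, H2-K1, H2-D1 and Psmb9 varied less.

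Of the immunoproteasome genes, Psmb8 (LMP7) was at 1.91, 2.89 and 3.88 CPM in overexpression and at 1.40, 1.60 and 2.20 CPM in control libraries. The groups overlapped, since overexpression replicate 1 lay below control replicate 3. The fold was 1.68, with an interval of 1.13 to 2.50 (adjusted p = 0.423). Psmb9 (LMP2) was at 1.37, 1.32 and 2.27 CPM against 1.21, 1.12 and 1.18 CPM, with a fold of 1.42 (interval 0.961 to 2.09, adjusted p = 0.589). Its groups did not overlap, but overexpression replicates 1 and 2 were close to the control libraries. Without overexpression replicate 3 the log2 fold change was 0.20 (adjusted p = 0.916) in place of 0.50 for Psmb9 and 0.48 (adjusted p = 0.802) in place of 0.75 for Psmb8. Psmb9 rested on 36 to 82 counts per library, the fewest of the 10.

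**Figure D2:**
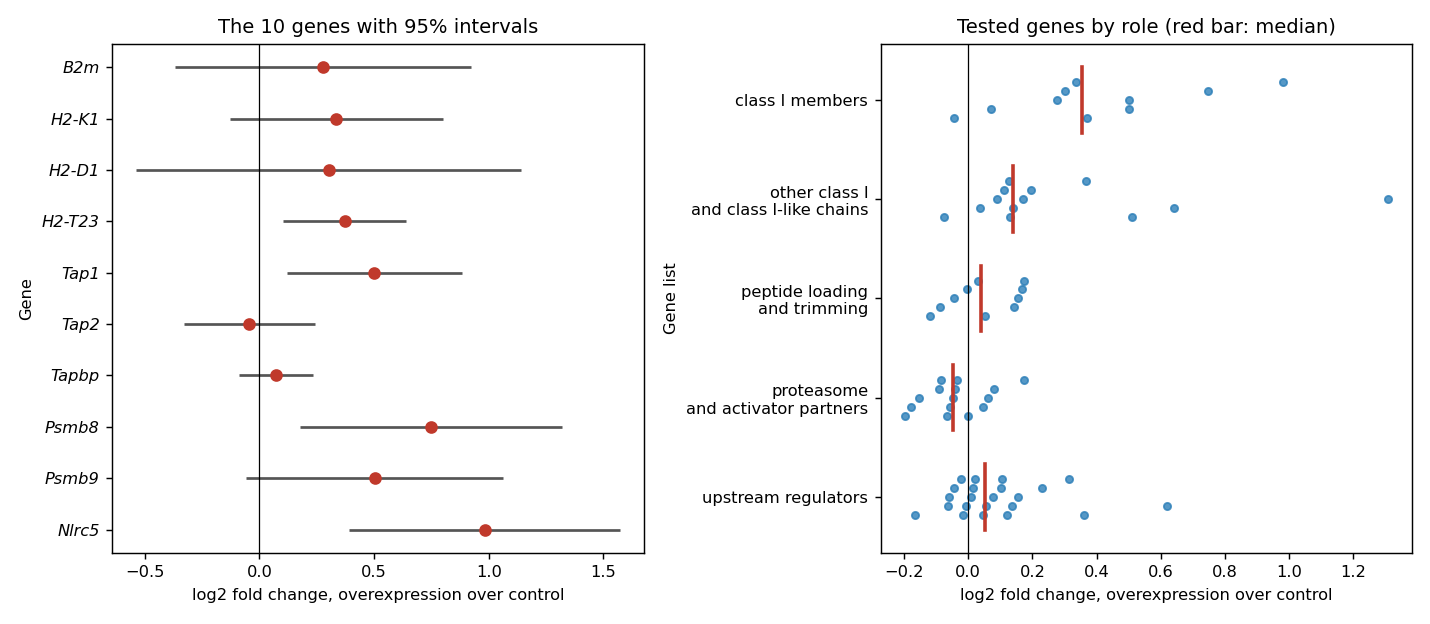
Left, log2 fold change of each of the 10 genes (points) with its 95% interval from edgeR (lines). Right, log2 fold changes of all tested genes in 5 lists of the pathway (points) with the list median (red bar): the 10 genes have a median of 0.35, and the proteasome and activator partners one of -0.048.

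Ratios of partner genes within a library were added after the data had been seen, and there were 7 of them. Levels were divided by the length of the annotated exons, so the size of a ratio depends on that annotation and its comparison between groups does not. The ratio of Tap1 to Tap2 was 0.501, 0.488 and 0.567 in overexpression and 0.336, 0.346 and 0.397 in control libraries. The groups did not overlap, and overexpression replicate 3 was again the highest library. The mean ratio was 1.44 times that of the control libraries (two-sided exact permutation p = 0.1, the smallest that 3 against 3 allows, and 0.350 after adjustment over the 7 ratios). Psmb9 to Psmb6, the standard subunit that it replaces, was at 0.0193, 0.0169 and 0.0310 against 0.0160, 0.0137 and 0.0150, again without overlap (exact permutation p = 0.1). Psmb8 to its standard counterpart Psmb5 was at 0.0121, 0.0158 and 0.0207 against 0.00870, 0.00897 and 0.0138 and overlapped (exact permutation p = 0.2). Psmb10 encodes the other inducible core subunit. Its ratio to the standard subunit gene Psmb7 was 0.668 ± 0.0415 in overexpression and 0.688 ± 0.0410 in control libraries (SD, n = 3; exact permutation p = 0.6). The ratio of B2m to H2-K1 stayed within 7.68 to 8.71 in all 6 libraries, although each gene alone ranged over 1.68-fold or more, and the groups overlapped.

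**Figure D3:**
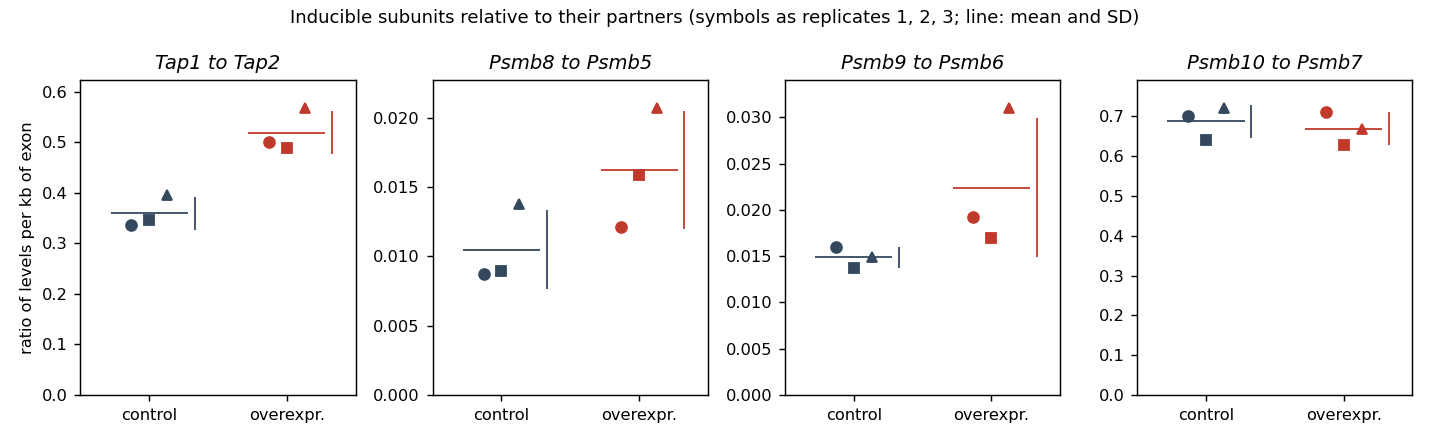
Ratios of levels per kb of exon for Tap1 to Tap2, Psmb8 to Psmb5, Psmb9 to Psmb6 and Psmb10 to Psmb7 in 3 control and 3 overexpression libraries (symbols: replicates 1 to 3; lines: mean and SD). The Tap1 to Tap2 ratios lie at 0.488 or more in overexpression and at 0.397 or less in control libraries.

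Overexpression replicate 3 had the highest value of the 6 libraries for all 10 genes, where it was the highest for 20.8% of all tested genes. Its mean deviation over the 10 genes, in log2 CPM from each gene's mean, was 0.58. The other overexpression libraries were at 0.053 (replicate 1) and -0.077 (replicate 2), and the control libraries at -0.25, -0.21 and -0.095. Summed over the 10 genes, where B2m, H2-D1 and H2-K1 weigh most, the level was 233, 184 and 317 CPM in overexpression and 195, 200 and 208 CPM in control libraries. Overexpression replicate 2 was thus the lowest library by the sum but lay above the control libraries by the mean deviation, in which each gene counts alike. The standard deviation in CPM was larger in the overexpression than in the control group for 9 of the 10 genes, against 57.3% of tested genes, and Tapbp was the exception. Without overexpression replicate 3 the median log2 fold change of the 10 genes was 0.17 in place of 0.35, and 8 in place of 9 were above 1.

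**Figure D4:**
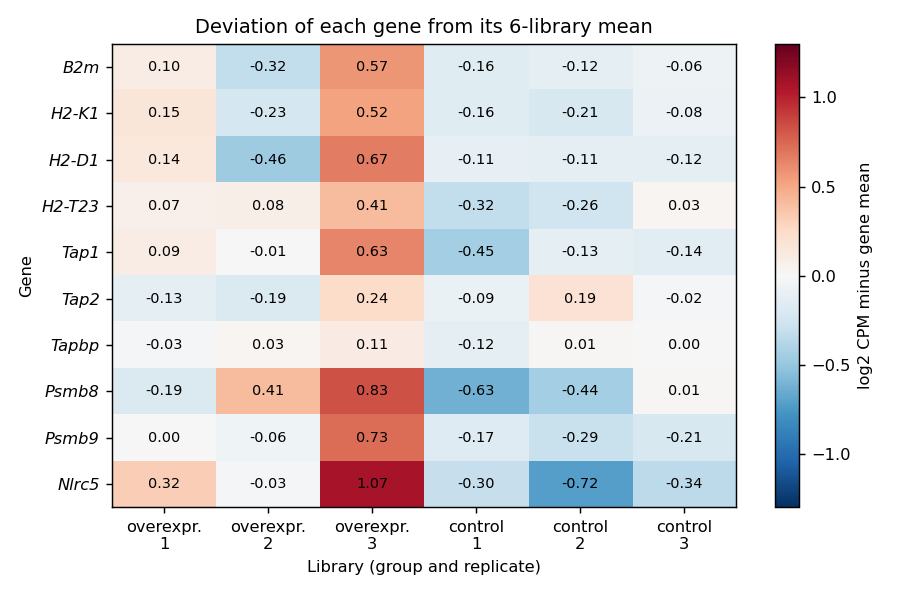
Deviation of each gene (rows) from its mean over the 6 libraries (columns), in log2 CPM; red is above and blue below the mean. The column of overexpression replicate 3 is above 0 for every gene, from 0.11 for Tapbp to 1.07 for Nlrc5.

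**Figure D5:**
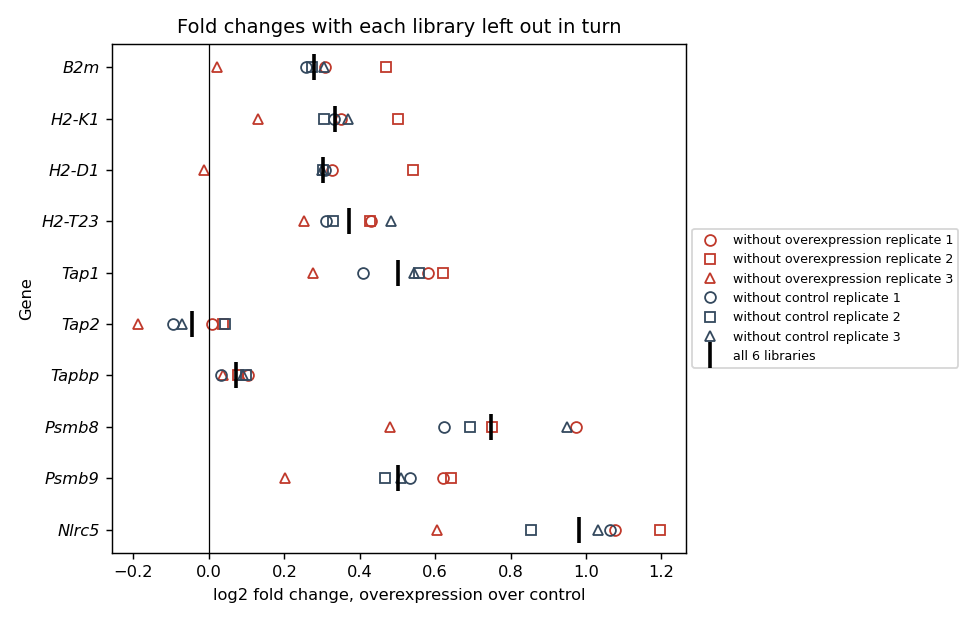
log2 fold change of each gene with all 6 libraries (black bars) and with each library left out in turn (open symbols, named in the legend). Leaving out overexpression replicate 3 gives the lowest value for 9 of the 10 genes, and Tapbp is lowest without control replicate 1.

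The 10 genes moved together across the libraries to different degrees. Over the 6 libraries, which share the group difference and overexpression replicate 3, Pearson's r between log2 CPM of 2 genes was above 0 in all 45 pairs, with a median of 0.80. It was 0.99 for B2m and H2-D1, 0.98 for B2m and H2-K1 and 0.95 for Psmb9 and Nlrc5. The lowest values were those of Tap2, with 0.22 for Nlrc5, 0.23 for H2-T23 and 0.24 for Psmb8. Outside the 10, the genes with a mean of at least 1 CPM whose pattern over the 6 libraries was most like the mean of the 10 were Lcorl, Ythdc1, Zbtb6, Lair1, Palm2, Dhx40, Syt4 and Stox2, with r from 0.997 to 0.985 among 15742 genes. Their log2 fold changes were 0.072 to 0.32, and Lair1, an inhibitory receptor of leukocytes, had the largest (0.32, adjusted p = 0.468).

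Per kb of annotated exon the levels of the 10 genes, as means over the 6 libraries, ran in the order B2m (99.0 CPM per kb), H2-D1 (19.1), H2-K1 (12.05), Tapbp (5.98), H2-T23 (3.61), Tap2 (2.21), Tap1 (0.972), Psmb8 (0.684), Nlrc5 (0.417) and Psmb9 (0.386). Compared within each library, every gene was above the next in the order in all 6 libraries except Nlrc5, which was above Psmb9 in 3 of 6, so the order of these 2 was not separated. The ranges over the libraries overlapped between H2-D1 and H2-K1, between Tap1 and Psmb8, between Psmb8 and Nlrc5 and between Nlrc5 and Psmb9. With the length of the longest coding transcript in place of all annotated exons the order was the same except that Psmb9 was above Nlrc5 in all 6 libraries. By that length H2-D1 was above H2-K1 in 5, Tapbp above H2-T23 in 4 and Tap1 above Psmb8 in 5 of 6 libraries. The order of these pairs by the means was thus the same with both lengths, but their order within single libraries depends on the length used. The regulator and the immunoproteasome genes were among the lowest of the 10 and the light chain the highest.

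Other heavy chains were compared with the 10 in a list of 22 class I and class I-like chains, of which 21 matched a row and 13 were tested. In edgeR's test 0 were called, against 0.0465% of all tested genes. At an unadjusted p below 0.05, 1 was higher and 0 lower, against 4.64% and 4.6% of all tested genes. Of the 13, 12 had a fold above 1, against 50.4% of all tested genes, and the median log2 fold change was 0.14. H2-Q4, a Qa-region heavy chain, was at 6.44, 6.08 and 9.29 CPM in overexpression and at 4.92, 4.81 and 5.61 CPM in control libraries, without overlap (log2 fold change 0.51 ± 0.164 SE, adjusted p = 0.401). H2-Q1 had the largest fold of the list on few counts, at 1.13, 1.08 and 0.610 CPM against 0.716, 0.0532 and 0.393 CPM (adjusted p = 0.542). Near-identical chains share sequence. Of the 100-base stretches of its longest coding transcript, H2-D1 shared 4.64% with other genes, H2-T23 7.28%, H2-Q4 2.66% and H2-K1 0%; of the 50-base stretches the shares were 14.3%, 28.8%, 24.3% and 8.79%. The sources used here do not state how such reads were assigned, so the values of these chains are uncertain. When the counts of H2-K1, H2-D1 and the 6 listed H2-Q genes were summed, a step added after the data had been seen, the sum was 101, 72.3 and 137 CPM against 81.8, 80.1 and 83.6 CPM (log2 fold change 0.34 ± 0.252 SE, adjusted p = 0.747). H2-K1 and H2-D1 made up 91.5% of these counts, so the sum mostly repeats their values, and H2-T23 was not in it. B2m, Psmb8, Psmb9 and Nlrc5 shared no 50-base stretch with another gene.

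The wider loading and cutting machinery differed less between the groups than the 10 genes did by their medians. In the list of 10 loading and trimming genes 0 were called, and the median log2 fold change was 0.041. At an unadjusted p below 0.05 in edgeR's test, 3 were higher and 0 lower, against 4.64% and 4.6% of all tested genes. Calr and Canx, chaperones that hold newly made heavy chains, were the 2 with the smallest p: Calr was at 386 ± 21.5 against 342 ± 25.7 CPM and Canx at 413 ± 21.4 against 374 ± 3.07 CPM (SD, n = 3; adjusted p = 0.423 for both). In the list of 15 proteasome subunits and activators 0 were called, and 4 had a fold above 1, against 50.4% of all tested genes (median log2 fold change of the list -0.048). Here 0 were higher and 3 lower at an unadjusted p below 0.05 in edgeR's test, against 4.64% and 4.6% of all tested genes. Psmb2, a standard core subunit, was at 35.6 ± 1.20 against 40.8 ± 0.796 CPM (adjusted p = 0.368), and Psma7, of the outer ring, at 49.4 ± 3.22 against 54.8 ± 1.49 CPM (adjusted p = 0.482). Psmb10 was at 15.6 ± 0.205 against 16.0 ± 0.300 CPM (adjusted p = 0.913), and was named for its role after its values had been seen.

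Upstream of class I, 22 of 24 listed regulators were tested and 0 were called by edgeR, with a median log2 fold change of 0.051. At an unadjusted p below 0.05 in edgeR's test, 1 of the 22 was higher and 1 lower. These counts are near the shares of all tested genes, 4.64% and 4.6%. Ifng, the gene of interferon-gamma, had 0 counts in all 6 libraries and Ifnb1 had 1 count in all. Ifnar1, a chain of the type I interferon receptor, was at 46.3 ± 2.50 against 51.9 ± 1.23 CPM (SD, n = 3; adjusted p = 0.431). Irf1, a factor that acts on class I and immunoproteasome promoters, was at 7.95 ± 1.89 against 7.69 ± 0.852 CPM (adjusted p = 0.961); it was chosen for its role after its values had been seen. Of 11 receptors and partners of class I in leukocytes and neurons only 3 had enough counts to be tested, and 0 were called. Tyrobp, a signalling adaptor of myeloid and NK receptors, was at 6.41 ± 1.44 against 9.28 ± 1.48 CPM (adjusted p = 0.385) and Lilrb4a, an inhibitory receptor, at 0.637 ± 0.110 against 1.11 ± 0.577 CPM (adjusted p = 0.564).

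The summed levels of microglia and of endothelial markers overlapped between the groups. The level of 10 microglia markers was 334 to 387 CPM in overexpression and 348 to 377 CPM in control libraries, with Csf1r the most abundant, and that of 10 endothelial markers was 523 to 556 against 513 to 568 CPM, with Bsg and Flt1 the most abundant. Of the microglia markers 3 had a fold above 1, against 50.4% of all tested genes. Fcrls, a microglia marker named after its values had been seen, was lower in every overexpression library. It was at 17.3, 17.8 and 16.7 CPM against 22.9, 21.6 and 23.1 CPM (adjusted p = 0.117). The summed level of 10 border macrophage and monocyte markers was 23.9, 16.9 and 35.3 CPM in overexpression and 16.7, 14.9 and 15.1 CPM in control libraries and did not overlap between the groups, although overexpression replicate 2 and control replicate 1 were close. Of its 8 tested genes 6 had a fold above 1, against 50.4% of all tested genes. Within this sum Cd74, the class II invariant chain, was at 6.56, 3.80 and 19.5 CPM against 4.64, 3.48 and 3.38 CPM, and Mrc1, a receptor of border macrophages, at 6.47, 5.03 and 6.16 CPM against 4.55, 4.02 and 4.56 CPM. Without Cd74, a sum added after the data had been seen, the other 9 markers were at 17.3, 13.1 and 15.7 CPM against 12.02, 11.4 and 11.7 CPM. These groups did not overlap either, and replicate 1, not replicate 3, was the highest. Ms4a7, a macrophage marker named after its values had been seen, was lower in every overexpression library, at 0.418, 0.380 and 0.416 CPM against 0.561, 0.851 and 0.656 CPM (adjusted p = 0.514). The sum of 12 T and NK cell markers was 3.91, 3.65 and 5.49 CPM against 3.74, 3.67 and 4.33 CPM, with Lck and Trac the most abundant. Only 3 of the 12 had enough counts to be tested, and 0 were called in edgeR's test. Lck had 62, 49 and 62 counts in overexpression and 51, 51 and 58 in control libraries. Trac had 30, 30 and 35 counts against 29, 30 and 30. Cd4, also tested and named after its values had been seen, had 13, 3 and 20 counts against 10, 22 and 9. The summed level of 10 oligodendrocyte markers, led by Mbp, was 3620, 3072 and 3453 CPM against 3842, 4844 and 4671 CPM. All 3 overexpression sums lay below the control sums, and 0 of the 10 had a fold above 1, against 50.4% of all tested genes. At an unadjusted p below 0.05 in edgeR's test, 8 were lower and 0 higher, against 4.6% and 4.64% of all tested genes. None was called. In 5 every overexpression library lay below every control library, as in 1562 of 19354 tested genes. The summed level of 10 meningeal fibroblast markers, led by Pdgfra and Dcn, was 222, 211 and 176 CPM against 197, 146 and 167 CPM. These sums overlapped, but all 10 fibroblast markers had a fold above 1, against 50.4% of all tested genes. The fold was smallest for Pdgfra (log2 0.0051) and Dcn (log2 0.15). In 4 markers, named after their values had been seen, every overexpression library lay above every control library, against 7.07% of all tested genes. The folds of these 4 were 1.62 (Col1a1), 1.89 (Col1a2), 2.45 (Igf2) and 1.48 (Foxc1). In edgeR's test 6 of the 10 were higher and 0 lower at an unadjusted p below 0.05, against 4.64% and 4.6% of all tested genes, and 0 were called. The summed choroid plexus markers had a level of 760 CPM in overexpression replicate 1, while the other 5 libraries ranged from 32.5 to 78.6 CPM, with Ttr and Kl the most abundant. All 10 of these markers had a fold above 1, against 50.4% of all tested genes. In 4 of them every overexpression library lay above every control library, against 7.07%. One of the 4, Clic6, named after its values had been seen, was at 19.7, 2.60 and 3.86 CPM against 0.311, 0.984 and 0.295 CPM. In edgeR's test 0 of the 10 were called. The part of any of these cells in the class I values was not tested. Of the labelled tissue, 10 neuron markers led by Camk2a and Snap25 summed to 9632, 9985 and 9844 CPM against 9998, 10889 and 10132 CPM. All 3 overexpression sums lay below the control sums, although overexpression replicate 2 and control replicate 1 were close. The groups overlapped in each of the 10 markers, and 4 had a fold above 1, against 50.4% of all tested genes. The part of neurons in the class I values was not tested either.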

How the data were processed

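Strand-specific libraries were made from poly(A) RNA with dUTP in the second strand, per the labels' protocols. The authors deposited 1 table of raw counts per Ensembl gene with 1 column per library; 0 columns were left unused. The submitters' processing notes list Trimmomatic 0.36, STAR 2.7.10 and featureCounts 2.0.3, and both mm10 and GRCm39 as builds, with no role for either. Annotation, strand setting and treatment of shared reads are not stated there. A total of 51948 of 56941 identifiers had a symbol. The 10 genes and all lists were chosen with earlier results of these data known.

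Groups were compared in R 4.3.3 with edgeR 4.0.16 (quasi-likelihood, robust), TMM factors, filterByExpr and no covariate. Standard errors came from the F statistic. Alternatives were RLE and upper-quartile factors, DESeq2 1.42.0, limma 3.58.1 (voom with sample weights), no filter, 1 CPM in 3 libraries, a replicate block and leaving out each library. The test was checked on simulated counts. Exon lengths and transcripts came from GENCODE M21 (GRCm38) and promoters from RefSeq. Permutation tests used log2(CPM + 0.1) for genes and log2 of the ratios. Named genes were the 10, the 2 with the smallest p of each pathway list, the 8 most like the 10 in pattern and the 2 most abundant of the cell type lists described; others named are said to be so or serve a ratio or marker sum, and a few genes that the rule would name are not reported here. The series' design text speaks of 3 mice per group, so replicates are mice.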

Additional observations from a re-analysis of the deposited data

How the results depend on the processing

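The direction of the median of the 10 genes held under every alternative run (0.17 to 0.52), and edgeR called 0 of them in each of the 6 fits without 1 library. The number of the 10 that passed was 1 (Nlrc5) with DESeq2 (adjusted p = 0.0394) and 1 (Nlrc5) without a filter on low counts (adjusted p = 8.7e-05). Over all genes those fits called 101 of 14884 and 304 of 35633, against 9 of 19354 in the main test. The number called was 5 with at least 1 CPM in 3 libraries, 6 with limma-voom and 26 with the replicate block. The cause of these differences was not tested. Leaving out 1 library gave 2 to 63 genes over all, 0 of the 10, 8 to 10 with a fold above 1, and medians of 0.17 (without overexpression replicate 3) to 0.52 (without overexpression replicate 2). Tap2 changed sign without overexpression replicate 1 (0.0086), overexpression replicate 2 (0.037) or control replicate 2 (0.043), and H2-D1 without overexpression replicate 3 (-0.012); over the 6 such fits Tap2 ranged from -0.19 to 0.043 and H2-D1 from -0.012 to 0.54. Same-numbered libraries deviated together only weakly (r = 0.014 to 0.018), so the numbers were not taken as pairs, although each of the 6 libraries correlated best with its own number; with the replicate block 0 of the 10 passed, the median was 0.34 and Nlrc5 had an adjusted p of 0.0956. Fewer than 100 counts per library stood behind Psmb9, which limits its precision. Psmb8 rested on 45 to 140 and Nlrc5 on 74 to 247 counts per library, which limits theirs as well.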
